A study of Mus musculus with 6 samples.

Results

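The genes described here are those of the Wnt pathway: the Wnt ligands and the proteins that acylate and export them, the Frizzled, LRP and LGR receptors, secreted and surface antagonists, and the cytoplasmic and nuclear regulators and feedback genes. They were chosen by symbol (every Wnt, Frizzled, Dkk1 to Dkk4 and Sfrp gene and 23 others), a rule that contains no measured value, and 58 of the 21534 genes of the table were members. RNA came from organoids of the ileum of wild-type C57Bl/6 mice, which are cultures of epithelium grown from stem cells. Both groups had CHIR99021, which inhibits the kinase GSK3, in their medium at 10 µM over the first 96 hours, and then received 10 µM all-trans retinoic acid or vehicle (DMSO) for 24 hours, with 3 libraries in each group. There was no group without CHIR99021, and the labels do not say whether it was present during the last 24 hours, or whether each library stands for its own animal or culture. The p-values therefore measure only the spread between these libraries, which may be technical.

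In the canonical pathway a Wnt protein, acylated by PORCN and carried to the surface by WLS, binds a Frizzled receptor and LRP5 or LRP6, and the AXIN, APC and GSK3 complex then stops marking β-catenin (Ctnnb1) for destruction. β-catenin binds TCF and LEF factors at target genes, among them inhibitors of the pathway such as Axin2, Rnf43, Znrf3 and Notum. In the crypt of the small intestine Wnt signals keep stem cells dividing. R-spondins, acting through LGR4 and LGR5, protect Frizzled receptors from removal by RNF43 and ZNRF3. Paneth cells are the main epithelial source of WNT3, and stromal cells supply other ligands. CHIR99021 acts on GSK3, downstream of ligand and receptor.

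Total counts ran from 14919144 to 21833846 per library. Library 3 stood apart within each group: the chi-square statistic per gene was 4.09 between retinoic acid libraries 1 and 2 and 10.4 or more against library 3, and 4.82 between vehicle libraries 1 and 2 and 6.45 or more against library 3. The treatment check genes Cyp26b1, Dhrs3 and Isx were called higher in 3 of 3 cases. Epithelial markers summed to between 10648 and 11609 CPM (counts per 1000000 of the scaled library size) in every library. The label calls the cells intestinal stem cells, and the stem cell marker Lgr5 was present at 127 ± 1.38 CPM with vehicle (SD, n = 3), but so was the Paneth cell lysozyme gene Lyz1, at 3789 ± 146 CPM. Of 12 listed stromal markers Foxl1 had no row in the table. None of the other 11 exceeded 82 counts in any library. The sum of the 11 was 6.51 to 6.59 CPM in the vehicle libraries and 4.5 to 5.08 CPM in the retinoic acid libraries.

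A filter on low counts left 37 of the 58 members to be tested, and 7 of these (18.9%) changed (quasi-likelihood test of edgeR, p adjusted by Benjamini-Hochberg, threshold 0.05), beside 9.46% of all 13700 tested genes. Of the 7, 3 were higher with retinoic acid (8.11% of the tested members, beside 5.37% of all tested genes) and 4 were lower (10.8%, beside 4.09%). The ligand genes Wnt3 and Wnt7a, the R-spondin receptor gene Lgr4 and the membrane antagonist gene Apcdd1 fell, while the Frizzled receptor genes Fzd5, Fzd7 and Fzd4 rose. Over the tested members the log2 fold changes had a median of -0.04, and over all tested genes one of -0.008. All retinoic acid libraries lay above all vehicle libraries in 4 of the tested members (10.8%, beside 12.9% of all tested genes) and below them in 10 (27%, beside 12.6%). These shares describe only members that passed the filter, 32 of which had at least 10 counts in every library, so the 21 untested members have no part in them. In RNA from whole cultures, fewer cells of a type and less RNA per cell cannot be told apart.

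**Figure D1:**
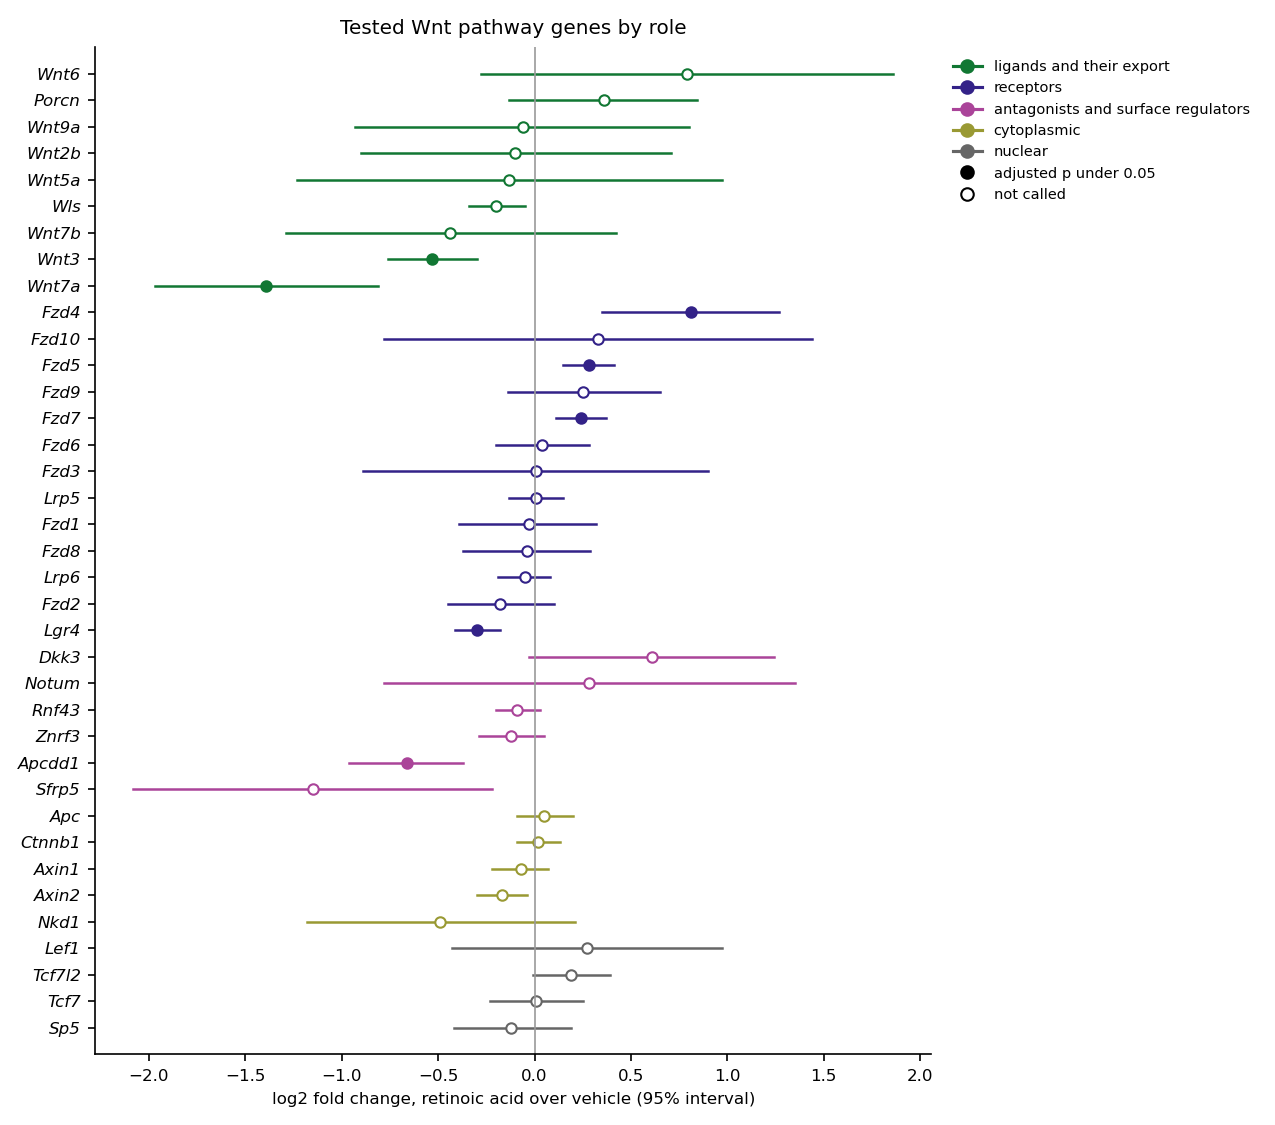
The log2 fold change of each of the 37 tested members, retinoic acid over vehicle, with its 95% interval on the x axis and genes grouped by role on the y axis. Filled points mark the 7 called genes: Wnt3, Wnt7a, Lgr4 and Apcdd1 lie left of 0, and Fzd4, Fzd5 and Fzd7 lie right of it.

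Because the called ligand genes fell and the called Frizzled genes rose, the sequences before the starts of 6 of the 7 called genes, all but Apcdd1, are shown, to set the motifs of the pathway's own TCF/LEF factors beside those of the retinoic acid receptors. The RefSeq promoter table (GRCm38.p6, the assembly of mm10) held 51 starts for 38 of the members. The 250 bases before each start were searched on both strands for the TCF/LEF core spelled CTTTGAA, or with the last base changed CTTTGAT, or with the sixth base changed CTTTGTA, or with both changed CTTTGTT. They were also searched for the receptor half-site spelled AGGTCA, or in the related spellings AGTTCA, then GGGTCA, and lastly GGTTCA. No motif of one class overlaps the other in the runs shown. A TCF/LEF core was found in 7 of the 51 member promoters (13.7%) and in 14.8% of the table's 32851 promoters, and a receptor half-site in 22 of the 51 (43.1%) and in 38.6% of all. Sequences run 5′ to 3′ along the gene's own strand and end at the gene's start in the count table or the RefSeq start, whichever comes first. Capitals mark the matches.
The genes that rose were these.
Fzd5 (chr1:64737751-64738000, minus strand): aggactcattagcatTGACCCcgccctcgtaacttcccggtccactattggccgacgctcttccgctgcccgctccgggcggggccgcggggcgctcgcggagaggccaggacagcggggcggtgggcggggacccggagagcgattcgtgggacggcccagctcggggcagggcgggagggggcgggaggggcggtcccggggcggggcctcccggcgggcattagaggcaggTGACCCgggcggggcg
Fzd7 (chr1:59481897-59482146, plus strand): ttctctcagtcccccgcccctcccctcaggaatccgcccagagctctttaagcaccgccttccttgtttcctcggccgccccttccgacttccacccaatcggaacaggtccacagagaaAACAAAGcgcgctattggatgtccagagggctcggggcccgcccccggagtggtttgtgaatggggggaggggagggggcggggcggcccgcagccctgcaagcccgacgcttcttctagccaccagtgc
Fzd4 (chr7:89404116-89404365, plus strand): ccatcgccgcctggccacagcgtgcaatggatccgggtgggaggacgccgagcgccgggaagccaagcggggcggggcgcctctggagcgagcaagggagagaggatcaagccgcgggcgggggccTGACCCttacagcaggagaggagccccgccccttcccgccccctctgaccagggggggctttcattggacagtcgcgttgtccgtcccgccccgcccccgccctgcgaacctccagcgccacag
Of the genes that fell, 3 are shown.
Wnt3 (chr11:103773925-103774149, plus strand): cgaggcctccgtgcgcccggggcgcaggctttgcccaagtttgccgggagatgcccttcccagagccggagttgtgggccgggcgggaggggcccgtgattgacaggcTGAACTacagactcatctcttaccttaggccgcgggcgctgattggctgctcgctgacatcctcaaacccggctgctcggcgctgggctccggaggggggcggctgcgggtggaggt
Wnt7a (chr6:91411364-91411603, minus strand): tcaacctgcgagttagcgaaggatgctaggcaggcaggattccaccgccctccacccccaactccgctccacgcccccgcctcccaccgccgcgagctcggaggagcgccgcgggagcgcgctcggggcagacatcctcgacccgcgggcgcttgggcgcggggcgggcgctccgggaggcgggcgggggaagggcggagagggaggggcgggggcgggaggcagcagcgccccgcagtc
Lgr4 (chr2:109917397-109917646, plus strand): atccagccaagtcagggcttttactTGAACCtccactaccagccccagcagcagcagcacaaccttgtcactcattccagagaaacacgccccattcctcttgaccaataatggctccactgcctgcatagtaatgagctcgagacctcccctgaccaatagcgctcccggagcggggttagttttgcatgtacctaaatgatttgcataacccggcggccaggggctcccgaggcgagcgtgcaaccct
Fzd5 had 2 half-sites on the opposite strand, 16 to 11 and 235 to 230 bases before its RefSeq start, and Fzd4 had 1 of the same kind (GGGTCA, printed as TGACCC). Fzd7 had instead 1 TCF/LEF core, CTTTGTT on the opposite strand. Wnt3 and Lgr4 each had 1 half-site of another spelling, AGTTCA in Wnt3 and GGTTCA in Lgr4, both on the opposite strand, and Wnt7a had no match in this window. These are matches of letters, not mapped binding sites, and over the 51 member promoters both classes were found at frequencies near those of all promoters.

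Among the ligand genes Wnt3 and Wnt7a fell (22.2% of the 9 tested genes of the class, beside 4.09% of all tested genes). None of the 9 rose, beside 5.37% of all tested genes. Wnt3, the ligand gene that Paneth cells express (ENSMUSG00000000125, mm10 chromosome 11, 103774150 to 103817957), stood at 34.6, 38.7 and 30.9 CPM in vehicle libraries 1, 2 and 3 and at 24, 27.1 and 21.4 CPM in retinoic acid libraries 1, 2 and 3. The groups did not overlap, and in both of them library 2 was the highest and library 3 the lowest. The means were 34.7 ± 3.93 and 24.2 ± 2.85 CPM (SD, n = 3), a level 1.44-fold lower with retinoic acid (log2 fold change -0.53, SE 0.11, adjusted p = 0.00608). Wnt7a (ENSMUSG00000030093, mm10 chromosome 6, 91363981 to 91411363), a ligand gene better known from the nervous system and limb, had 83, 82 and 70 counts with vehicle and 26, 24 and 51 with retinoic acid. In CPM this was 4.8, 4.86 and 4.61 against 1.22, 1.63 and 2.58, so the vehicle libraries lay close together and retinoic acid library 3 was the nearest to them. Wnt7a had the largest fold difference among the called members, 2.62-fold lower with retinoic acid (log2 fold change -1.39, SE 0.27, adjusted p = 0.00414). Leaving out retinoic acid library 3 gave -1.76, and leaving out retinoic acid library 1 gave -1.15. Both ligand genes kept their call with any 1 library removed, with a highest adjusted p of 0.045 for Wnt3 and 0.023 for Wnt7a.

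The ligand repertoire of these cultures was narrow. Per kilobase of exon, Wnt3 stood at 11.3 CPM with vehicle against 7.86 CPM after retinoic acid, Wnt7a at 1.5 and 0.57 CPM, and Wnt9a, the third in that order with vehicle, at 0.326 and 0.315 CPM. Wnt3 made up 76.7 ± 3.98% of the summed level per length of the 18 Wnt genes with vehicle and 76.6 ± 4.21% with retinoic acid (SD, n = 3). The share of Wnt7a was 10.7%, 9.58% and 10.4% in the vehicle libraries and 3.7%, 4.73% and 8.55% in the retinoic acid libraries. The sum itself was 14.2, 16 and 13.9 CPM per kilobase with vehicle and 10.4, 10.8 and 9.5 with retinoic acid, with no overlap. As both called genes belong to this sum, it restates their fall and adds no separate test.

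The other ligand genes were near the limit of detection. Wnt6, another ligand gene reported in crypt epithelium, had 21 counts over the vehicle libraries and 42 over the retinoic acid libraries, and its log2 fold change of 0.79 had a 95% interval from -0.28 to 1.86. Wnt9b had 35 and 13 counts, Wnt4 14 and 13, and Wnt11 1 and 4, and these 3 were among the 11 untested members of the class. No untested gene of the class exceeded 17 counts in a library. Wnt2b, Wnt5a, Wnt7b and Wnt9a were tested and not called, with intervals at least as wide as -0.9 to 0.71, so a change of the size seen in Wnt3 was not detectable in them at this depth. Wls, which encodes the carrier that takes Wnt proteins to the cell surface, had 148, 143 and 131 CPM with vehicle against 122, 129 and 118 CPM after retinoic acid. Its groups did not overlap, but it was not called (log2 fold change -0.20, 95% interval -0.34 to -0.05, adjusted p = 0.0843) with all 6 libraries. Leaving out vehicle library 3 gave an adjusted p of 0.0451. Porcn, the gene of the acyltransferase that Wnt proteins need for export, was not called (log2 fold change 0.36, interval -0.13 to 0.84).

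Levels of Paneth cell genes are given beside Wnt3, since these cells are its known epithelial source. Of 9 tested Paneth cell markers 2 fell (22.2%, beside 4.09% of all tested genes) and 1, Mmp7, rose (11.1%, beside 5.37%). The median log2 fold change was -0.23. All retinoic acid libraries lay below all vehicle libraries in 55.6% of the 9, beside 12.6% of all tested genes. They lay above them in 11.1%, beside 12.9%. DESeq2 and limma-voom each called 3 lower and 1 higher. The summed level of the 11 markers in the table was 5955 to 6486 CPM with vehicle against 5356 to 5607 CPM after retinoic acid. Lyz1 alone made up most of the vehicle sum. The log2 fold change of Wnt3 was -0.53. The part of Paneth cell content in it was not tested.

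**Figure D2:**
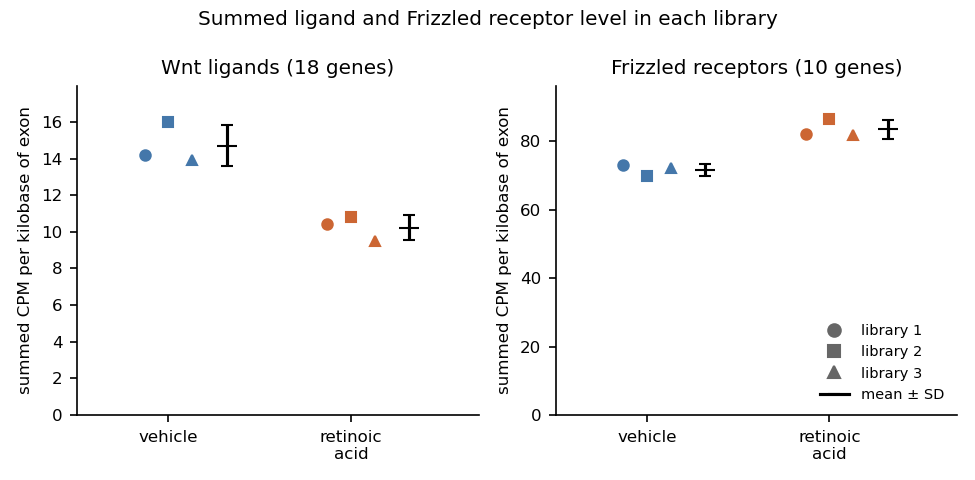
The y axes give the summed CPM per kilobase of exon over the 18 Wnt genes (left) and the 10 Frizzled genes (right) in each of the 6 libraries, with the mean and SD of each group. The ligand sum is 13.9 to 16 with vehicle and 9.5 to 10.8 with retinoic acid, and the Frizzled sum is 69.7 to 73.1 and 81.7 to 86.5. Called genes make up most of each sum.

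Among the 13 tested receptor genes 3 rose (23.1%, beside 5.37% of all tested genes) and 1 fell (7.69%, beside 4.09%). The 3 that rose all encode Frizzled receptors, the seven-pass membrane proteins that bind Wnt. Fzd5 (ENSMUSG00000045005, mm10 chromosome 1, 64730560 to 64737750), the Frizzled gene with the highest level per length here, had 237, 222 and 256 CPM with vehicle against 280, 296 and 292 CPM after retinoic acid. Every retinoic acid library lay above every vehicle library, and the rise was small, at 1.21-fold (means of 238 ± 17 and 289 ± 8.52 CPM, n = 3 with SD; log2 fold change 0.28, SE 0.06, adjusted p = 0.0109). Fzd7 (ENSMUSG00000041075, mm10 chromosome 1, 59482147 to 59486947), a receptor gene known from Lgr5-expressing stem cells, had 83.5, 83.5 and 79.4 CPM with vehicle against 97.1, 99 and 95.5 CPM after retinoic acid. These groups were tight and apart, with a 1.18-fold rise (log2 fold change 0.24, SE 0.06, adjusted p = 0.0219). Fzd4 (ENSMUSG00000049791, mm10 chromosome 7, 89404366 to 89410110), which also serves as the receptor of the ligand norrin, had 7.74, 7.58 and 7.04 CPM with vehicle against 13.8, 17.4 and 8.24 CPM after retinoic acid. Its retinoic acid libraries spread widely, and library 3 lay just above the vehicle range. The mean rose 1.75-fold (log2 fold change 0.81, SE 0.21, adjusted p = 0.0287), and leaving out retinoic acid library 3 gave 1.06 with an adjusted p of 3.42e-05.

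With 1 library removed, which leaves 2 in its group, the rises of Fzd5 and Fzd7 kept nearly the same size but not always their call. The log2 fold change of Fzd5 ran from 0.23 to 0.33 over the 6 removals, and only the removal of vehicle library 2 ended its call (adjusted p = 0.0687). That of Fzd7 ran from 0.22 to 0.26. Fzd7 lost its call when any library but retinoic acid library 3 was left out, with an adjusted p of 0.0562 without vehicle library 1, 0.0601 without vehicle library 2, 0.0795 without vehicle library 3, and, for retinoic acid libraries 1 and 2, 0.0928 and 0.0825. Fzd4 lost it in the same 5 cases, with an adjusted p of 0.0845, 0.092, 0.0692, 0.0985 and 0.131 in that order, and in limma-voom (0.084). Removing retinoic acid library 2 took its log2 fold change to 0.57. Over the members, 0 were called higher once vehicle library 2 was removed, and 1 was called higher once any other library except retinoic acid library 3 was removed.

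**Figure D3:**
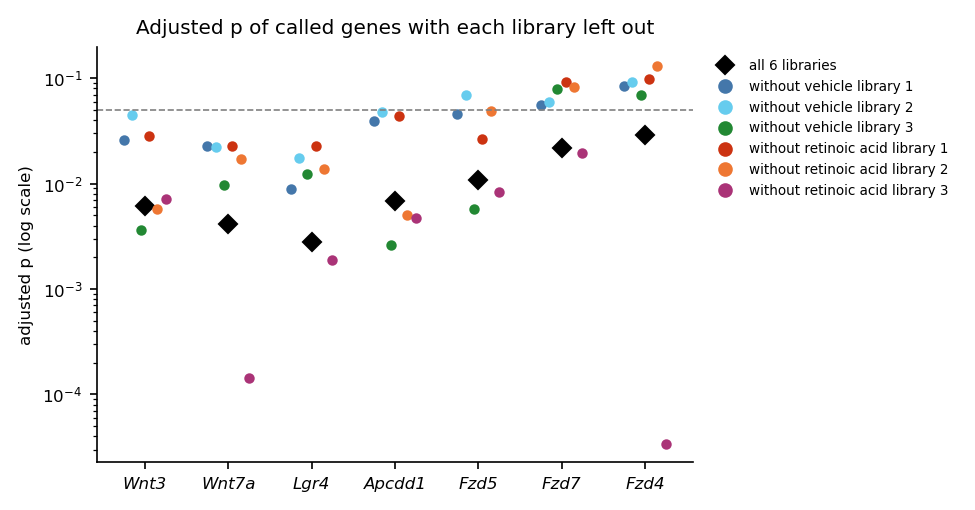
The adjusted p (log axis) of each of the 7 called genes with all 6 libraries (black diamonds) and with each library left out in turn (coloured points), with the threshold of 0.05 as a dashed line. Wnt3, Wnt7a, Lgr4 and Apcdd1 stay under the line in every case, Fzd5 crosses it in 1 case, and Fzd7 and Fzd4 cross it in 5 cases each.

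The other Frizzled genes were not called. With vehicle, Fzd5 stood at 34.5, Fzd7 at 18.1, Fzd6 at 5.59, Fzd1 at 4.23, Fzd2 at 3.46 and Fzd9 at 2.72 CPM per kilobase of exon, followed by Fzd8 at 1.48 and Fzd4 at 1.11. Fzd3 and Fzd10 were under 0.4 CPM per kilobase in both groups. With retinoic acid Fzd4 stood at 1.96 CPM per kilobase and Fzd8 at 1.45, but the low value of Fzd4 in library 3 leaves their ranges overlapping. Fzd5 and Fzd7 made up 48.1 ± 2.82% and 25.3 ± 1.07% of the summed level per length of the 10 Frizzled genes with vehicle, and 50.2 ± 1.35% and 25.7 ± 0.443% with retinoic acid (SD, n = 3). These shares lay within the spread between libraries. As the called genes Fzd5 and Fzd7 make up most of the Frizzled sum, its rise restates theirs and adds no separate test. For Fzd6, with a level between those of Fzd7 and Fzd1, the log2 fold change was 0.04 with a 95% interval from -0.20 to 0.28.

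Lgr4 (ENSMUSG00000050199, mm10 chromosome 2, 109917647 to 110014257), the R-spondin receptor gene expressed through most of the crypt, was the member called with the smallest adjusted p. It had 267, 274 and 278 CPM in vehicle libraries 1, 2 and 3 and 220, 224 and 224 CPM in the retinoic acid libraries. The fall was small and even, at 1.23-fold (means of 273 ± 5.7 and 222 ± 2.54 CPM, n = 3 with SD; log2 fold change -0.30, SE 0.05, adjusted p = 0.00277), and the highest adjusted p with 1 library removed was 0.0227. Lgr6, a relative found in other epithelia, had 6 counts over the vehicle libraries, all in library 3, and 4 over the retinoic acid libraries. Lgr5, which belongs to the same receptor group and is not among the 58, stood at 127 ± 1.38 CPM with vehicle and 81.7 ± 15 CPM after retinoic acid (log2 fold change -0.64, SE 0.10, adjusted p = 0.000933). Of 7 tested stem cell markers, Lgr5 among them, 5 fell (71.4%, beside 4.09% of all tested genes), with a median log2 fold change of -0.63. The summed level of the 7 was 1473 to 1511 CPM with vehicle against 858 to 893 CPM after retinoic acid. Slc12a2 made up most of that sum, with means of 974 CPM with vehicle and 551 CPM after retinoic acid. Proliferation markers fell in 5 of 7 cases (71.4%, beside 4.09% of all tested genes), with sums of 502 to 560 and 348 to 403 CPM. Their part in the values of Lgr4 was not tested.

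The co-receptor genes Lrp5 and Lrp6 stayed within narrow limits. Lrp5 had 194, 225 and 218 CPM with vehicle against 220, 207 and 214 CPM after retinoic acid, and its log2 fold change of 0.01 had a 95% interval from -0.13 to 0.15. For Lrp6 the value was -0.05 with an interval from -0.19 to 0.08. Both intervals leave out a change as large as that of Lgr4.

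**Figure D4:**
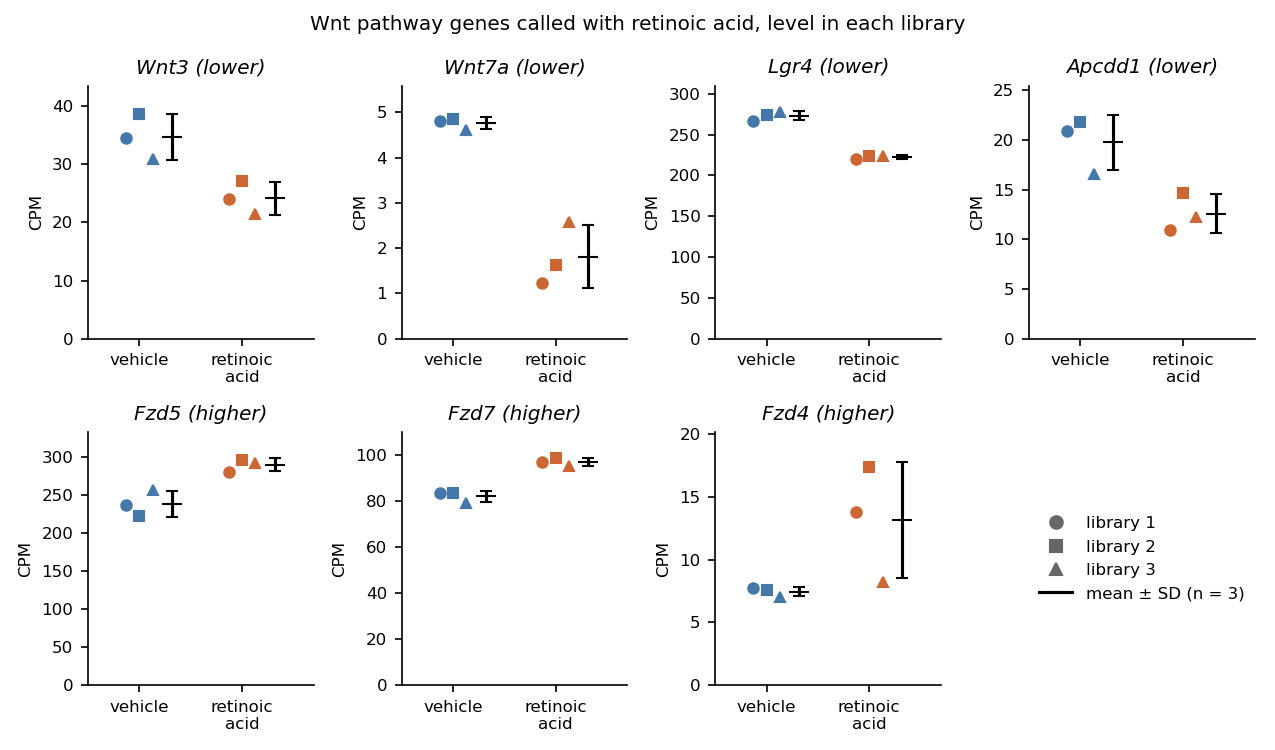
CPM of the 7 called members in each library, with the y axis from 0 in each panel, vehicle in blue and retinoic acid in orange, symbols for library number and the mean ± SD of each group in black. The groups are apart in each panel, and for Fzd4 retinoic acid library 3 (8.24 CPM) lies close to the vehicle libraries (7.04 to 7.74 CPM).

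Of 6 tested antagonists and surface regulators only Apcdd1 was called (16.7%, beside 9.46% of all tested genes called in either direction). APCDD1 is a membrane glycoprotein that inhibits Wnt signalling at the receptor, and its gene (ENSMUSG00000071847, mm10 chromosome 18, 62922327 to 62953195) is a Wnt target itself. It had 20.9, 21.8 and 16.6 CPM with vehicle against 10.9, 14.7 and 12.2 CPM after retinoic acid. The groups did not overlap, and vehicle library 3 was the lowest of its group. The level was 1.58-fold lower with retinoic acid (log2 fold change -0.66, SE 0.14, adjusted p = 0.00677), and the highest adjusted p with 1 library removed was 0.0483. Sfrp5, the gene of a secreted protein that binds Wnt, had 14, 15 and 22 counts with vehicle and 12, 7 and 7 with retinoic acid. Its log2 fold change of -1.15 had a wide interval (-2.08 to -0.22) and was not called (adjusted p = 0.128). Dkk3, a member of the Dickkopf family that, unlike its relatives, does not act through LRP6, had 1.5, 1.3 and 1.18 CPM with vehicle against 1.87, 1.83 and 2.38 CPM after retinoic acid. These groups did not overlap either, and it too was not called (log2 fold change 0.61, interval -0.03 to 1.24, adjusted p = 0.259).

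Rnf43 and Znrf3 encode the ubiquitin ligases that remove Frizzled receptors from the surface, and both are Wnt targets. Rnf43 had 302, 308 and 298 CPM with vehicle against 278, 286 and 289 CPM after retinoic acid. All retinoic acid libraries were lower, by a small amount that was not called (log2 fold change -0.09, 95% interval -0.20 to 0.03, adjusted p = 0.374). Znrf3 showed the same order, with 46.5, 47.1 and 52.4 CPM against 44.9, 43.5 and 45.7 CPM (log2 fold change -0.12, interval -0.29 to 0.05, adjusted p = 0.416). The intervals of Rnf43 and Znrf3 leave out a fall as large as that of Apcdd1. Notum, whose product strips the lipid from Wnt proteins, was tested at 24 counts over the vehicle libraries and 33 over the retinoic acid libraries, and its interval ran from -0.78 to 1.35. The remaining 6 genes of the class, among them Sfrp1, Sfrp2, Dkk2 and Wif1, were under the filter, with at most 15 counts in any library.

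With all 6 libraries and treatment as the only term, no cytoplasmic or nuclear member was called in either direction by edgeR, DESeq2 or limma-voom. Of all tested genes edgeR called 9.46% in either direction, so no call among 9 tested members does not set them apart. Only 1 of the 9, Axin2, had an unadjusted p under 0.05 in edgeR. Ctnnb1, the β-catenin gene, had 1594, 1549 and 1531 CPM with vehicle against 1622, 1504 and 1610 CPM after retinoic acid. At this depth its log2 fold change of 0.02 had a 95% interval from -0.09 to 0.13. Apc (log2 fold change 0.05, interval -0.09 to 0.20) and Axin1 (-0.07, interval -0.22 to 0.07), both genes of the destruction complex, were bounded nearly as closely. Axin2, the inducible scaffold gene often read as a Wnt reporter, had 214, 226 and 238 CPM with vehicle against 192, 206 and 205 CPM after retinoic acid. Its groups did not overlap and its interval ran from -0.30 to -0.04, but it was not called (log2 fold change -0.17, adjusted p = 0.101). Nkd1, a feedback inhibitor gene that acts on Dishevelled, had 41, 31 and 27 counts with vehicle and 33, 13 and 35 with retinoic acid. In CPM this was 2.37, 1.84 and 1.78 against 1.55, 0.881 and 1.77, so the groups did not overlap, by a narrow margin. The log2 fold change of Nkd1 was -0.49, with an interval from -1.18 to 0.21. Apc2 and Nkd2 were under the filter.

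The nuclear members split by level. Sp5, a target that represses other Wnt targets, Tcf7l2, the main TCF gene of the intestine, and Tcf7 stood at 10.7, 8.09 and 7.86 CPM per kilobase of exon with vehicle, and Lef1 at 0.235. Tcf7l2 had 76, 68.8 and 68.2 CPM with vehicle against 84.2, 90.9 and 68.6 CPM after retinoic acid. Retinoic acid library 3 lay within the vehicle range and the other two lay above it. The gene was not called with all libraries (log2 fold change 0.19, interval -0.01 to 0.39, adjusted p = 0.254) but was called higher without retinoic acid library 3 (0.30, adjusted p = 0.0103). For Tcf7 the log2 fold change was 0.01 (interval -0.23 to 0.25), for Sp5 -0.12 (-0.42 to 0.19) and for Lef1 0.27 (-0.43 to 0.97). Lef1 had between 20 and 59 counts per library, and its vehicle libraries spread from 1.32 to 3.26 CPM. Tcf7l1, the TCF gene that mostly represses, was under the filter with 18 counts over the vehicle libraries and 7 over the retinoic acid libraries.

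**Figure D5:**
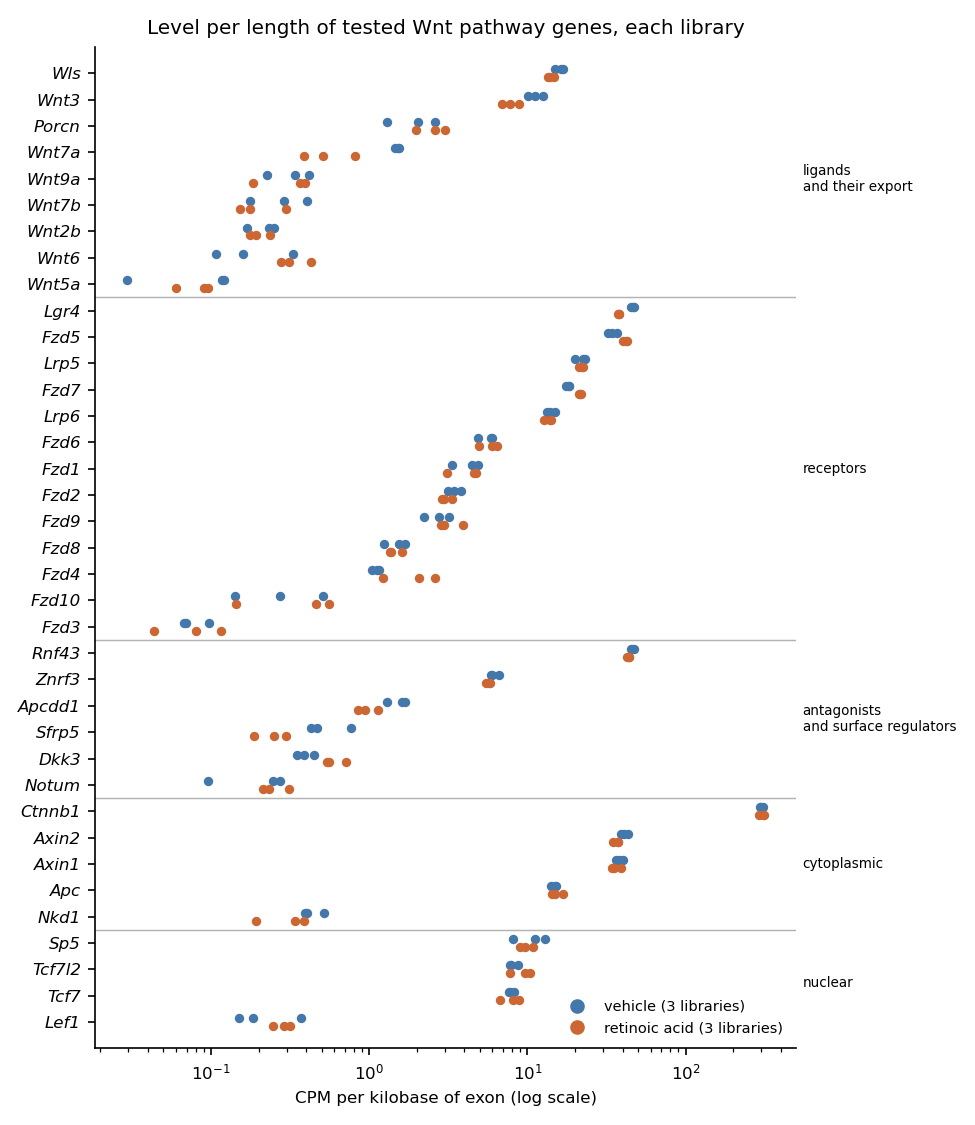
The level of each of the 37 tested members per kilobase of exon (log axis), 1 point per library, with vehicle in blue and retinoic acid in orange and genes ordered by vehicle level within each role. Ctnnb1 stands highest, at 304 CPM per kilobase with retinoic acid, Lgr4 (46.4 with vehicle) and Rnf43 (46.1) follow, and the tested Wnt genes other than Wnt3 and Wnt7a lie under 1.

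Other genes of the pathway were taken from a list of receptors, kinases, scaffolds, corepressors and planar polarity genes, chosen with earlier results of these data known. Of 48 tested, 6 fell (12.5%, beside 4.09% of all tested genes) and none rose (beside 5.37%), and the median log2 fold change was 0.01. At an unadjusted p under 0.05 there were 8 lower and 3 higher, and DESeq2 called 6 lower and 1 higher while limma-voom called 6 and 0. The 4 with the smallest p were Lgr5, Tle4 (log2 fold change -0.53, adjusted p = 0.00372), a corepressor gene of TCF factors, Ctnnbip1 (-0.49, adjusted p = 0.0082), which encodes an inhibitor of β-catenin's binding to TCF, and Celsr1 (-0.34, adjusted p = 0.0157), a planar polarity cadherin gene. Ctnnbip1 lost its call without vehicle library 2 (adjusted p = 0.054), and Celsr1 on leaving out vehicle library 2 (0.0556), vehicle library 3 (0.0684) or retinoic acid library 1 (0.0801). The count of 6 became 2 on removing vehicle library 2, and 3 on removing vehicle library 3 or on removing retinoic acid library 1. Tle1 (-0.34) and Vangl2 (-0.46) complete the 6 and were named after their values were seen. The kinase genes Gsk3a and Gsk3b, whose products CHIR99021 inhibits, had log2 fold changes of 0.12 and 0.06 and were not called.

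A list of 27 tested Wnt target genes, chosen with earlier results of these data known, split into 6 higher and 7 lower (22.2% and 25.9%, beside 5.37% and 4.09% of all tested genes). These shares hold for the listed genes only. The median log2 fold change of the list was -0.07. Those higher with the smallest p were Plaur, the urokinase receptor gene (57.2 ± 3.01 to 133 ± 6.76 CPM, SD, n = 3, log2 fold change 1.22), Vegfa, an angiogenic growth factor gene (0.59), Mmp7, a protease gene of Paneth cells (0.63), and Ephb2 (0.25), an ephrin receptor gene. Those lower with the smallest p were Slc12a2, an ion cotransporter gene (-0.82), Smoc2 (-0.63), Lgr5 (-0.64) and Ephb3 (-0.39). Tiam1 (-0.48), Cdx1 (-0.35) and Sox4 (-0.20) complete the 7 lower, and Cdkn2a (0.83) and Jun (0.21) complete the 6 higher. These were named after their values were seen. Slc12a2, Smoc2 and Lgr5 are also stem cell markers, and Plaur and Vegfa respond to many signals besides Wnt. Myc, Ccnd1, Cd44 and Sox9, also named after their values were seen, were among the 14 not called (log2 fold changes 0.03, 0.00, 0.00 and -0.11).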

How the data were processed

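The data were 1 deposited table with a raw read count per gene for 6 polyA libraries, per the file headers and the labels' protocols, together with the authors' p-value, FDR and log2 fold change from DESeq, per the file headers. Alignment was to mm10, per the submitters' processing notes, while aligner, annotation and strand setting were not given in the sources used here. Titles gave the groups and replicate numbers.

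Counts were tested with edgeR 4.0.16 in R 4.3.3 (filterByExpr defaults, TMM factors 0.9778 to 1.023, glmQLFit and glmQLFTest with treatment as the only term, two-sided, Benjamini-Hochberg over 13700 genes, threshold 0.05). The biological coefficient of variation was 7.81%. SE is the log2 fold change over the root of F, and 95% intervals use its t quantile. Exon lengths are unions of GENCODE M21 exons (mm10), found for all 58 members. On counts simulated for this comparison over 13589 genes, 76% of 100 genes changed 1.5-fold and 95% of 100 changed 2-fold were called, and 8.56% of calls were unchanged genes. The changed genes were drawn only from those above a minimum mean CPM. These shares therefore do not cover the lowest tested genes or changes under 1.5-fold.

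Named in full by rule were called members, the 3 of each role with the smallest p, and a set of 21 members; of the other lists, Lgr5 and up to 4 called genes per direction. Porcn, Wnt2b, Wnt5a, Wnt7b, Wnt9a, Lgr6, the other Frizzled genes, Tcf7l1, Gsk3a and Gsk3b were named after their values were seen, as were the further genes under the filter. Members and lists were chosen with earlier results of these data known. The alternatives were DESeq2 size factors, no filter, a minimum of 10 counts, DESeq2 1.42.0, limma-voom (limma 3.58.1), a replicate block and leaving out each library. At an FDR under 0.05, the authors' deposited table has 3 members higher and 4 lower, and all 7 were also called here.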

Additional observations from a re-analysis of the deposited data

How the results depend on the processing

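The members called were 3 higher and 4 lower with DESeq2 size factors, with no filter, with a minimum of 10 counts and in DESeq2, and 2 and 4 in limma-voom. With 1 library left out, they were 0 to 4 higher and 4 to 5 lower, all tested genes 443 to 978 higher and 289 to 787 lower, and the further pathway genes 0 to 1 higher and 2 to 7 lower. The 1 further gene called higher with no filter, in DESeq2, with the replicate block or without retinoic acid library 3 was Csnk1a1. For 36 named genes, 410 of 430 comparisons with an alternative kept direction and call or stayed uncalled, 16 lost a call, 4 gained one and none reversed a called direction. Libraries of the same number do not pair by the labels, and their deviations correlated at 0.128, 0.0975 and 0.257 for numbers 1, 2 and 3, each library correlating best with its own number. With the replicate block 1224 genes were higher and 1052 lower, the members 3 and 6, with Axin2 (adjusted p = 0.0145) and Wls (0.0137) added, and 1 further pathway gene was higher. Counts under about 20 per library limit most ligand and secreted antagonist genes. The cause of these differences was not tested.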

Other observations

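Among members too low to be tested, Apc2, a relative of Apc best known from neurons, had 9, 11 and 11 counts with vehicle and 5, 3 and 5 with retinoic acid. Wif1, the gene of a secreted Wnt inhibitor, had 5, 5 and 4 counts with vehicle and 9, 15 and 7 with retinoic acid. Wnt5b had 1, 4 and 17 counts in vehicle libraries 1, 2 and 3 and 16, 2 and 6 in the retinoic acid libraries, a spread within each group far wider than the difference between them. These genes were named after their values were seen.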
